A study of Canis lupus familiaris with 36 samples.

Results

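The 4 genes described here, CDK2, MCM5, CDC23 and KIF20A, encode proteins of successive steps of the cell cycle. They are the 4 rows, of 30424 in the table of read counts, whose Ensembl identifiers the study's supplementary tables pair with these symbols: ENSCAFG00000000082 for CDK2, ENSCAFG00000001709 for MCM5, ENSCAFG00000001209 for CDC23 and ENSCAFG00000001204 for KIF20A. The rows were located by name, without a measured value, but the genes were chosen with earlier results of these data known. RNA was sequenced from CLBL-1, a cell line of a canine diffuse large B-cell lymphoma, to compare inhibition of Bruton's tyrosine kinase (BTK), inhibition of the phosphoinositide 3-kinase gamma (PIK3CG) and both together. Cells received DMSO alone, 1 µM Ibrutinib (Ibr, the BTK inhibitor), 5 µM AS-605240 (AS, the PIK3CG inhibitor) or both inhibitors (Ibr + AS), and were harvested after 24, 48 or 72 h. Each of the 12 combinations of treatment and time was represented by 3 libraries, from cells of passages p121, p126 and p128 (replicates 1, 2 and 3), which makes 36 libraries. Both inhibitors were dissolved in DMSO, so all groups received that solvent, and the control medium held as much DMSO as the combined treatment; how much the single treatments held is not given in the sources used here. All libraries came from 1 established line, and passages of a line are not separate animals. Passage was a term of the fit, so the p-values measure how far group differences varied across passages of these cells. They do not measure a spread between animals.

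A dividing cell copies its DNA and then separates the copies. CDK2 is the kinase that, with its cyclins, drives entry into and passage through DNA synthesis. MCM5 is a subunit of the ring-shaped MCM helicase, which is loaded onto replication origins and unwinds the DNA ahead of the fork. CDC23 is a scaffold subunit of the anaphase-promoting complex (APC/C), the ubiquitin ligase that sends cyclins and securin to degradation so that chromosomes can separate and mitosis can end. KIF20A is a kinesin of the central spindle, which acts late in mitosis and in the division of the cytoplasm. Messenger RNAs of many such genes are made mostly in the phase in which the protein acts. In a bulk sample, fewer cells in a phase and less RNA per cell cannot be told apart, which holds for every value below.

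The libraries held 9941919 to 14703839 reads on genes (median 11888025), and each of the 4 genes had at least 315 reads in every library. Levels are given as CPM, read counts scaled to library size with TMM factors, which are not divided by gene length, so levels are compared within a gene only. Replicate 3 of Ibr at 72 h, which the study set aside, was left out of the tests, and its values are given where they bear on a result. Of the B-cell markers that could be located, TNFRSF13C and DLA-DRA were present in every library. Their sum also differed with treatment, at 2840 to 2920 CPM with DMSO and 3870 to 4290 CPM with Ibr + AS at 24 h. At 48 h the groups overlapped (3230 to 3480 and 3340 to 4080 CPM). By 72 h the order was the other way, with 4340 to 4820 CPM with DMSO and 2240 to 3220 CPM with Ibr + AS. Among other cell types' markers, IFNG, IL4, IL13 and TREM2 had 0 to 2 reads and IL5 had 1 to 21. LYZ, which was listed with the myeloid markers, moved with the treatment: the sum of the 2 located myeloid markers was 79.6 to 95.8 CPM with DMSO and 204 to 287 CPM with Ibr + AS at 24 h. The marker sums are scaled to library size without TMM factors. The part of these marker shifts in the results was not tested.

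With Ibr + AS, CDK2, MCM5 and CDC23 fell at 24 h, all 4 genes fell at 48 h, and CDK2 and CDC23 fell at 72 h, each against DMSO of the same time (adjusted p at most 0.05 in the quasi-likelihood test of edgeR, Benjamini-Hochberg adjustment over 18670 genes). A fall was common in this contrast: at 24, 48 and 72 h, 16.9%, 15.3% and 14.5% of all genes tested were lower past the same limit. Of the 10785 genes whose mean level reached 1 CPM, 28.6%, 25.6% and 22.8% were lower. With a single inhibitor, only CDK2 fell past the limit in edgeR, with Ibr at 48 h, where 4.94% of genes tested were lower. That call was lost without replicate 1 and without replicate 3. In DESeq2, CDC23 at 24 h also passed as lower, with Ibr (-0.26, adjusted p = 0.00642) and with AS (-0.26, adjusted p = 0.0134). AS changed 2.52%, 3.66% and 13.2% of genes tested at 24, 48 and 72 h. None of the 12 tests of AS against DMSO for the 4 genes passed, while 3 had an unadjusted p under 0.05 and 1 passed with DESeq2. None of the 4 genes was a differentially expressed gene (DEG) by the study's additional limit of an absolute log2 fold change above 1, in edgeR or in DESeq2. The share of DEGs among all genes with Ibr + AS was 8.26% at 24 h, 7.69% at 48 h and 7.53% at 72 h.

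**Figure D1:**
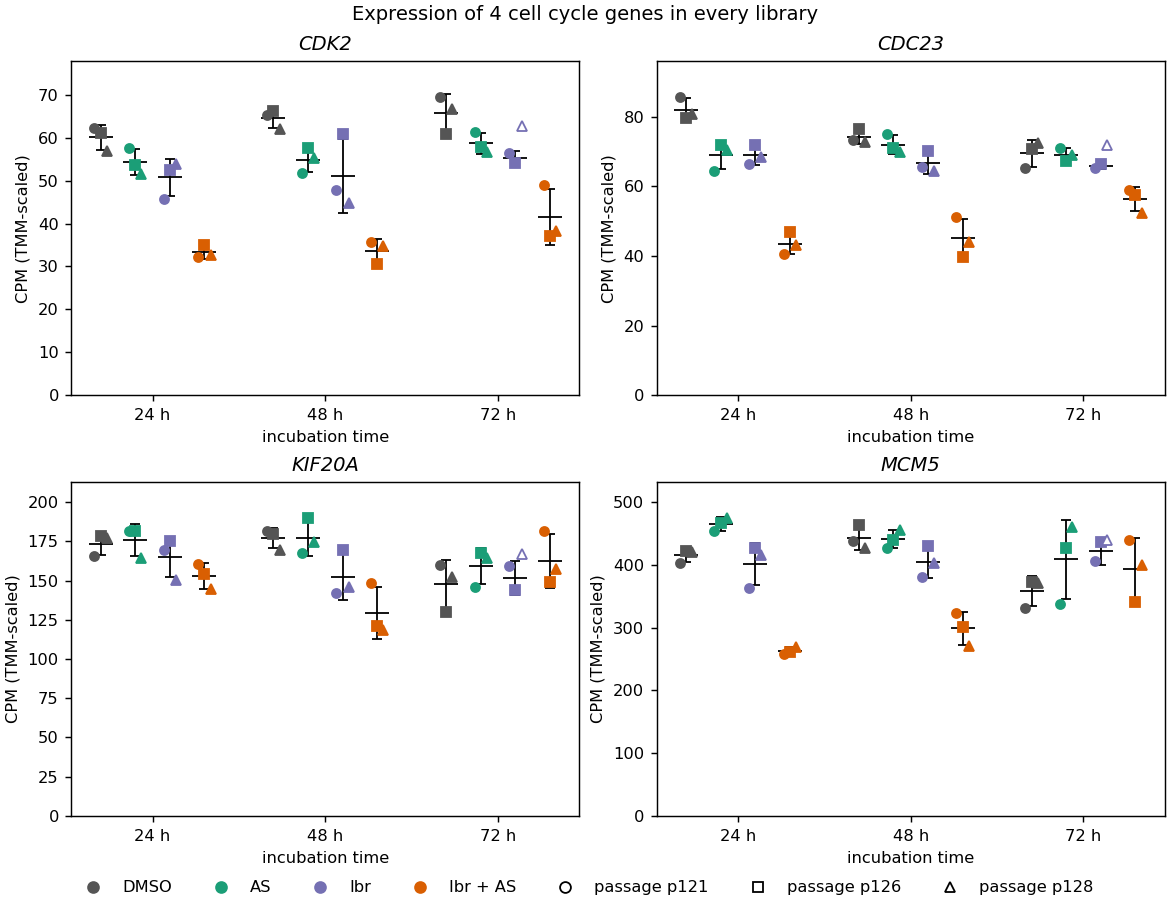
Level of each gene (vertical axis, CPM from 0) in every library, by incubation time (horizontal axis) and treatment (colour), with passage shown by the symbol, horizontal lines for group means and bars for 1 SD; the open triangle is the Ibr library left out of the tests and out of its mean. CDK2 and CDC23 with Ibr + AS lie below every other library of the same time at all 3 times, MCM5 does so at 24 and 48 h, and KIF20A at none.

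CDK2 with DMSO measured 62.2, 61.1 and 56.9 CPM at 24 h in replicates 1, 2 and 3, 65.2, 66.3 and 62.1 CPM at 48 h, and 69.5, 60.9 and 66.7 CPM at 72 h. With Ibr + AS it measured 32.2, 34.97 and 32.6 CPM at 24 h, 35.8, 30.7 and 34.7 CPM at 48 h, and 49.1, 37.2 and 38.3 CPM at 72 h. At each time these 3 libraries were below all libraries of the other treatments, and replicate 1 at 72 h stood highest among the 9. The log2 fold change against DMSO was -0.87 ± 0.10 (SE from the fit of all groups, n = 3 against 3, adjusted p = 2.81e-12 by edgeR) at 24 h, which is 0.547 times the DMSO level. It was -0.93 ± 0.10 (adjusted p = 2.53e-13) at 48 h and -0.66 ± 0.10 (adjusted p = 4.58e-08) at 72 h. The kinase gene was lower with Ibr + AS in each of the 3 passages at each time, by 0.50 to 1.11 on the log2 scale.

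With AS alone CDK2 measured 57.7, 53.6 and 51.6 CPM at 24 h, 51.8, 57.6 and 55.3 CPM at 48 h, and 61.3, 57.9 and 56.7 CPM at 72 h. With Ibr alone it measured 45.8, 52.6 and 53.9 CPM at 24 h, 47.8, 60.9 and 44.8 CPM at 48 h, and 56.4 and 54.2 CPM at 72 h, with 62.6 CPM in the library left out. Every library with a single inhibitor was below the DMSO library of its own passage and time, but 1 of the 6 group differences passed the test. The change with Ibr at 48 h passed the test, at -0.32 ± 0.10 (adjusted p = 0.0239). It did not pass without replicate 1 (-0.29, adjusted p = 0.119) or without replicate 3 (-0.28, adjusted p = 0.313). The changes with Ibr at 24 and 72 h were -0.26 and -0.26 (adjusted p = 0.0977 and 0.0992), and those with AS lay between -0.21 and -0.15, with adjusted p of at least 0.304.

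MCM5, the helicase subunit, measured 403.5, 422.0 and 420.0 CPM with DMSO at 24 h, 437.5, 463.3 and 426.6 CPM at 48 h, and 330.7, 372.9 and 371.9 CPM at 72 h. With Ibr + AS it measured 257.8, 260.9 and 269.1 CPM at 24 h, 323.8, 301.7 and 271.3 CPM at 48 h, and 440.5, 340.7 and 399.5 CPM at 72 h. The groups were apart at 24 and 48 h and overlapped at 72 h, when the replicates with Ibr + AS ranged more widely than at either earlier time. The log2 fold change was -0.68 ± 0.09 (adjusted p = 6.03e-10) at 24 h, with -0.69 to -0.64 in the 3 passages, and -0.56 ± 0.09 (adjusted p = 2.42e-07) at 48 h. At 72 h it was 0.14 ± 0.09 (adjusted p = 0.285), and the passages did not go one way, with 0.41 in passage p121, -0.13 in passage p126 and 0.10 in passage p128. Without replicate 2 the value at 72 h was 0.28 (adjusted p = 0.0474), and without replicate 1 it was -0.02 (adjusted p = 0.990).

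With AS alone MCM5 measured 453.5, 467.0 and 475.5 CPM at 24 h, 426.7, 440.2 and 455.2 CPM at 48 h, and 338.5, 427.1 and 460.8 CPM at 72 h. With Ibr alone it measured 363.7, 426.4 and 415.8 CPM at 24 h, 380.5, 430.8 and 402.5 CPM at 48 h, and 406.5 and 437.0 CPM at 72 h, with 439.5 CPM in the library left out. All 3 AS libraries at 24 h were above all 3 DMSO libraries, and so were the Ibr libraries at 72 h. Neither difference passed the test, with 0.15 ± 0.09 (adjusted p = 0.521) for AS at 24 h and 0.25 ± 0.10 (adjusted p = 0.0849) for Ibr at 72 h. With the library left out put back, the latter was 0.26 and passed (adjusted p = 0.0363, with 0.0109 to 0.294 over the 10 alternative fits).

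CDC23, the APC/C subunit, measured 85.7, 79.7 and 80.8 CPM with DMSO at 24 h, 73.3, 76.5 and 72.8 CPM at 48 h, and 65.2, 70.7 and 72.5 CPM at 72 h. With Ibr + AS it measured 40.7, 46.8 and 43.2 CPM at 24 h, 51.1, 39.8 and 44.2 CPM at 48 h, and 59.0, 57.6 and 52.3 CPM at 72 h. The groups were apart at every time, and the gap narrowed from both sides, since the DMSO values were lower and the Ibr + AS values higher at 72 h than at 24 h. The log2 fold change was -0.93 ± 0.10 (adjusted p = 4.33e-15) at 24 h, 0.524 times the DMSO level, and -0.71 ± 0.10 (adjusted p = 4.27e-10) at 48 h. At 72 h it was -0.30 ± 0.09 (adjusted p = 0.00991), lower in 3 of 3 passages by 0.14 to 0.47. That last call was lost without replicate 2 (-0.29, adjusted p = 0.0509) and without replicate 3 (-0.22, adjusted p = 0.343).

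With AS alone CDC23 measured 64.5, 71.8 and 70.4 CPM at 24 h, 75.0, 70.9 and 69.9 CPM at 48 h, and 71.0, 67.4 and 69.0 CPM at 72 h. With Ibr alone it measured 66.3, 72.0 and 68.5 CPM at 24 h, 65.6, 70.2 and 64.3 CPM at 48 h, and 65.3 and 66.4 CPM at 72 h, with 71.9 CPM in the library left out. At 24 h both single treatments were apart from DMSO and below it, by almost the same amount. These differences were -0.26 ± 0.09 for AS (adjusted p = 0.121) and -0.27 ± 0.09 for Ibr (adjusted p = 0.0546), and neither passed the test as fitted, although with lowly counted genes removed both did (adjusted p = 0.0456 and 0.0203). Over the 10 alternative fits the adjusted p ranged from 0.00292 to 0.612 for AS and from 2.48e-04 to 0.399 for Ibr. At 48 and 72 h the single treatments gave values between -0.14 and 0.01, with adjusted p of at least 0.456.

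KIF20A, the kinesin, measured 165.5, 178.2 and 177.1 CPM with DMSO at 24 h, 181.6, 179.6 and 169.5 CPM at 48 h, and 160.2, 130.1 and 152.2 CPM at 72 h. With Ibr + AS it measured 160.5, 153.9 and 144.4 CPM at 24 h, 148.2, 121.1 and 118.4 CPM at 48 h, and 181.7, 148.8 and 157.2 CPM at 72 h. The groups were apart at 24 and 48 h, with Ibr + AS lower, and overlapped at 72 h. Only the change at 48 h passed the test, at -0.45 ± 0.09 (adjusted p = 2.92e-05), or 0.732 times the DMSO level. At 24 h the value was -0.20 ± 0.09 (adjusted p = 0.0767) and at 72 h it was 0.14 ± 0.09 (adjusted p = 0.280), higher in 3 of 3 passages by 0.05 to 0.19.

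With AS alone KIF20A measured 181.7, 181.8 and 164.4 CPM at 24 h, 167.7, 190.2 and 174.3 CPM at 48 h, and 146.2, 167.6 and 164.3 CPM at 72 h. With Ibr alone it measured 169.6, 175.0 and 150.5 CPM at 24 h, 141.9, 169.7 and 145.8 CPM at 48 h, and 159.3 and 143.8 CPM at 72 h, with 167.0 CPM in the library left out. All of these groups overlapped DMSO of the same time, Ibr at 48 h only in that its highest library was level with the lowest DMSO library. That difference was -0.20 ± 0.09 (adjusted p = 0.182), and the other 5 lay between -0.09 and 0.13.

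**Figure D2:**
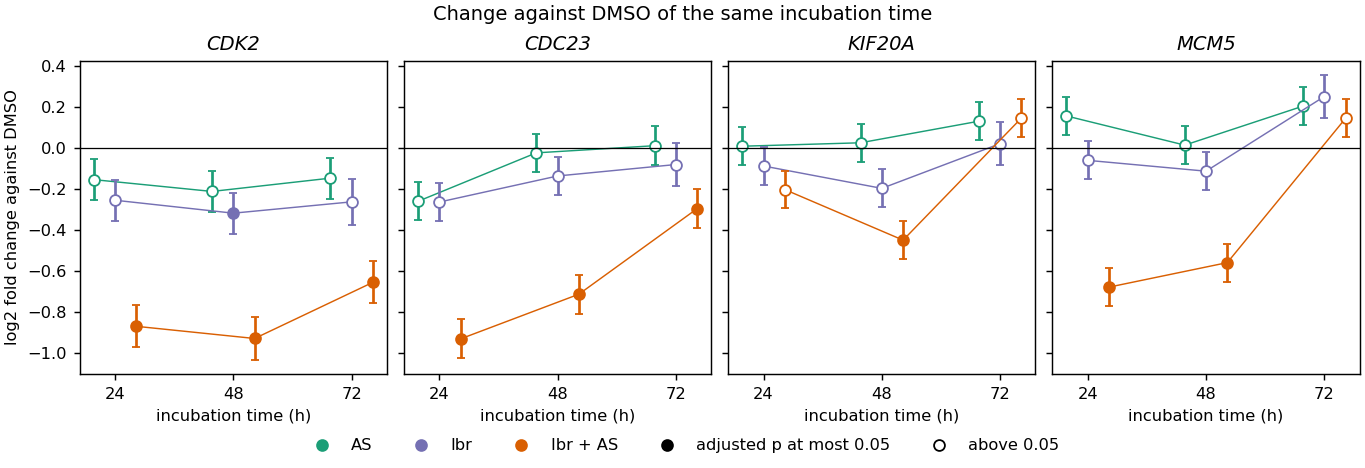
Log2 fold change against DMSO of the same time (vertical axis) at 24, 48 and 72 h (horizontal axis) for AS, Ibr and Ibr + AS, with bars of 1 standard error from the edgeR fit and filled symbols where the adjusted p was at most 0.05. The filled symbols are Ibr + AS for CDK2 and CDC23 at 3 times, for MCM5 at 24 and 48 h and for KIF20A at 48 h, and Ibr for CDK2 at 48 h.

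The sample-sheet numbers in the column names of the table run in 2 series, and in passages p121 and p128 all libraries belong to 1 series each. The differences within those passages are therefore free of that split. With Ibr + AS at 48 h, where passage p126 compares libraries of different series, the differences in passages p121, p126 and p128 were -0.86, -1.11 and -0.84 for CDK2, -0.43, -0.62 and -0.65 for MCM5, -0.52, -0.94 and -0.72 for CDC23, and -0.29, -0.57 and -0.52 for KIF20A. For CDK2, CDC23 and KIF20A the difference across the series was the largest of the 3, and the values within a series had the same sign.

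The combined treatment was also set against each single treatment. Ibr + AS against Ibr gave -0.61, -0.61 and -0.39 for CDK2 at 24, 48 and 72 h, all past the test, and 9.39%, 10.2% and 3.24% of all genes tested were lower at those times. For CDC23 the same contrast passed at 24 h (-0.67) and 48 h (-0.58), for MCM5 at 24 h (-0.62) and 48 h (-0.45), and for KIF20A at 48 h (-0.25 ± 0.09, adjusted p = 0.0395). Without replicate 3 the values for CDK2 at 72 h and KIF20A at 48 h were -0.38 (adjusted p = 0.169) and -0.22 (adjusted p = 0.360), and neither passed. Without replicate 2 KIF20A at 48 h was at -0.12 (adjusted p = 0.628). CDK2 at 72 h was then at -0.34, in a fit where only replicate 1 of Ibr at 72 h remained. The call for KIF20A held in 4 of 10 alternative fits, and with the series of sample-sheet numbers as a term the value was -0.20 (adjusted p = 0.156). Against AS, Ibr + AS was lower for CDK2 (-0.72, -0.72 and -0.51) and CDC23 (-0.67, -0.69 and -0.31) at the 3 times, for MCM5 at 24 h (-0.83) and 48 h (-0.57), and for KIF20A at 48 h (-0.47), beside 12.3%, 14.4% and 8.25% of all genes tested. Of genes from 1 CPM, 16%, 17.4% and 5.47% were lower against Ibr and 21%, 24.5% and 13.6% against AS at 24, 48 and 72 h. The value for CDC23 against AS at 72 h was -0.24 (adjusted p = 0.418) without replicate 3. Ibr against AS, which changed 0.718%, 1.67% and 1.95% of genes tested, passed for none of the 4 genes at any time, with values between -0.22 and 0.05 and standard errors of 0.09 to 0.11; of these 12 tests 2 had an unadjusted p under 0.05 and 0 passed with DESeq2. With only the groups of the comparison, MCM5 at 24 h passed (-0.21, adjusted p = 0.00309).

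Additivity on the log2 scale was then examined, that is, whether Ibr + AS differed from the sum of the changes with Ibr and with AS. For MCM5 at 24 h the single changes summed to 0.09 and the combined change was -0.68, a departure of -0.77 ± 0.13 (adjusted p = 1.97e-05). Departures below the sum were found in 2.02% of genes tested at 24 h, 7.6% at 48 h and 4.06% at 72 h. Of genes from 1 CPM the shares were 3.45%, 13% and 6.8%. For MCM5 at 48 h the sum was -0.10 and the departure -0.46 ± 0.13 (adjusted p = 0.00846). For CDC23 at 48 h the sum was -0.16 and the departure -0.55 ± 0.13 (adjusted p = 0.00166), whereas at 24 h, with a sum of -0.53, the departure of -0.41 ± 0.13 did not pass (adjusted p = 0.0655).

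For CDK2, whose single changes summed to -0.41 at 24 h and -0.53 at 48 h, the departure was -0.46 ± 0.14 (adjusted p = 0.0472) and -0.40 ± 0.14 (adjusted p = 0.0508), values on either side of the limit. The value at 24 h lost its call without any 1 of the 3 passages, with -0.49, -0.48 and -0.34 without replicates 1, 2 and 3 (adjusted p = 0.0733, 0.113 and 0.624), and without the passage term (-0.46, adjusted p = 0.0687). Of the departures at 48 h, that of CDC23 was -0.46 (adjusted p = 0.0593) without replicate 2 and -0.52 (adjusted p = 0.0929) without replicate 3, and that of MCM5 was -0.44 (adjusted p = 0.0514) and -0.30 (adjusted p = 0.391). The departure of MCM5 at 24 h passed in all of these fits. KIF20A did not depart past the limit at any time (-0.12 and -0.28 at 24 and 48 h), nor did any of the 4 genes at 72 h, where 1 had an unadjusted p under 0.05 and 0 passed with DESeq2.

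**Figure D3:**
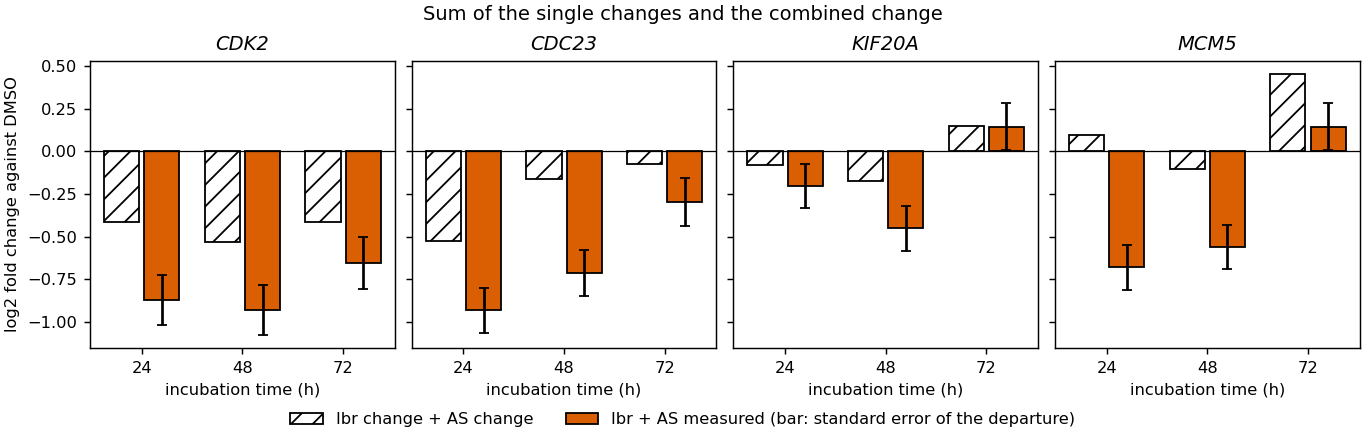
Sum of the log2 fold changes of Ibr and AS (hatched bars) beside the measured change of Ibr + AS (filled bars), all against DMSO, at 24, 48 and 72 h (horizontal axis), with bars of 1 standard error of the departure. The filled bar of MCM5 at 24 h lies at -0.68 against a hatched bar at 0.09, while the bars of KIF20A at 72 h are of about equal height.

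Levels also differed with time in DMSO alone, which bears on every contrast with it. In the fit of the 9 DMSO libraries, no change between 24 and 48 h passed the test for any of the 4 genes, while 9.92% of 16468 genes tested passed. None of the 4 had an unadjusted p under 0.05 or passed with DESeq2. CDC23 was at -0.15 ± 0.08 (adjusted p = 0.284), and all its DMSO libraries at 48 h lay below all those at 24 h. At 72 h against 24 h CDC23 (-0.28 ± 0.08, adjusted p = 0.00270), KIF20A (-0.27 ± 0.08, adjusted p = 0.00134) and MCM5 (-0.25 ± 0.07, adjusted p = 0.00177) fell, as did 19.5% of genes tested, and CDK2 stood at 0.10 ± 0.08 (adjusted p = 0.424). Of genes from 1 CPM, 29.1% fell. The fall of CDC23 was -0.19 (adjusted p = 0.122) without replicate 1, and that of KIF20A was -0.15 (adjusted p = 0.184) without replicate 2 and -0.17 (adjusted p = 0.0860) with the series of sample-sheet numbers as a term.

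With Ibr + AS the direction over time was the other way for MCM5, which rose by 0.59 ± 0.09 from 24 to 72 h (adjusted p = 6.97e-07), and for CDC23, which rose by 0.37 ± 0.10 (adjusted p = 0.00444). CDK2 rose by 0.32 ± 0.11 (adjusted p = 0.0323), KIF20A stood at 0.09 ± 0.09 (adjusted p = 0.702), and 4.33% of all genes tested rose in this contrast. The rises of CDK2 and CDC23 did not pass without replicate 1, at 0.16 (adjusted p = 0.648) and 0.28 (adjusted p = 0.163). Without replicate 3 that of CDK2 was 0.36 and did not pass (adjusted p = 0.118). A fit without 1 replicate also holds fewer libraries, and why these calls moved was not tested. With AS or Ibr alone, where 5.93% and 4.47% of genes tested changed from 24 to 72 h, no change passed the test for any of the 4 genes, in edgeR or in DESeq2, and 1 of the 8 had an unadjusted p under 0.05. The effect of Ibr + AS at 72 h less that at 24 h was 0.82 ± 0.13 for MCM5 (adjusted p = 1.60e-07), 0.64 ± 0.13 for CDC23 (adjusted p = 7.68e-05), 0.35 ± 0.13 for KIF20A (adjusted p = 0.0364) and 0.21 ± 0.14 for CDK2 (adjusted p = 0.334), beside 11.6% of all genes tested with a higher effect at 72 h. Of genes from 1 CPM, 19.7% had a higher effect at 72 h, and 7.39% rose with Ibr + AS from 24 to 72 h. For KIF20A the difference between the effects passed in 4 of 10 alternative fits, with adjusted p up to 0.215. Since this difference subtracts the DMSO values, it holds the changes in DMSO as well as those in the treated cells.

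Ordered by mean level, the 12 groups put Ibr + AS at 24 h and 48 h lowest for CDK2 (33.3 ± 1.49 and 33.7 ± 2.68 CPM, SD, n = 3), CDC23 (43.6 ± 3.07 and 45.0 ± 5.70 CPM) and MCM5 (263 ± 5.85 and 299 ± 26.4 CPM). For CDK2 and CDC23 those neighbours overlapped, whereas for MCM5 they did not. Next came Ibr + AS at 72 h for CDK2 (41.5 ± 6.57 CPM) and CDC23 (56.3 ± 3.55 CPM), each apart from the group below it. For MCM5 the third place was held by DMSO at 72 h (358.5 ± 24.1 CPM), which overlapped Ibr + AS at 72 h (394 ± 50.1 CPM). The highest groups were DMSO at 72 h for CDK2 (65.7 ± 4.38 CPM), DMSO at 24 h for CDC23 (82.1 ± 3.22 CPM, apart from its neighbour) and AS at 24 h for MCM5 (465 ± 11.1 CPM). In KIF20A all neighbours in the order overlapped, from Ibr + AS at 48 h (129 ± 16.5 CPM) to AS at 48 h (177 ± 11.5 CPM). From the lowest to the highest of the 36 libraries the levels spanned 2.27-fold for CDK2, 2.15-fold for CDC23, 1.84-fold for MCM5 and 1.61-fold for KIF20A.

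The 4 genes were placed among other cell cycle genes through 4 lists by role, which hold 141 symbols. The pairs of identifiers and symbols used here cover 1068 genes, so 26 of the 141 could be located, the 4 genes included, and all 26 passed the filter on low counts. With Ibr + AS, 17 of the 26 fell and 3 rose at 24 h, 17 fell and 2 rose at 48 h, and 10 fell and 4 rose at 72 h. Without the 4 genes the numbers were 14 and 3, 13 and 2, and 8 and 4 of 22, to be read beside the 28.6%, 25.6% and 22.8% of genes from 1 CPM that were lower. The share of genes from 1 CPM that were higher was 25.5%, 23.8% and 22.7%, and of all genes tested 17.1%, 15.4% and 14.1%. The median log2 fold change of the 22 was -0.34, -0.28 and -0.09 at 24, 48 and 72 h, and that of all genes with at least 1 CPM was -0.03, -0.03 and 0.01.

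Among the 5 located cyclins, CDKs, CDK inhibitors and CDC25 phosphatases, CDK2, CDK4 and CDC25C fell at every time. The shares of genes from 1 CPM that fell were 28.6%, 25.6% and 22.8% at 24, 48 and 72 h. CDK4, the kinase that acts with D-type cyclins, was at -0.65, -0.61 and -0.34 at 24, 48 and 72 h. CDC25C, the phosphatase that activates the mitotic kinase, was at -0.43, -1.12 and -1.21, and was a DEG at 48 and 72 h. CCND3, a D-type cyclin, rose at every time (0.88, 0.65 and 0.43). CDKN2B, an inhibitor of CDK4, rose at 24 h (0.40 ± 0.15, adjusted p = 0.0357) and fell at 72 h (-1.02 ± 0.15, adjusted p = 4.23e-06).

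Of the 3 located members of the APC/C and SCF list, all fell at 24 h and 2 fell at 48 and 72 h. The shares of genes from 1 CPM that fell were 28.6%, 25.6% and 22.8% at 24, 48 and 72 h. FBXO5, an inhibitor of the APC/C, was at -0.75, -0.80 and -0.40, beside the values of CDC23 given above. SKP1, the adaptor of the SCF ligases, was at -0.24 (adjusted p = 0.0492) at 24 h and at -0.09 and 0.03 later, where it did not pass.

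Of the 11 located genes of the spindle, kinetochore, condensin and cohesin list, 6 fell and 1 rose at 24 h, 9 fell and none rose at 48 h, and 3 fell and 2 rose at 72 h. Among genes from 1 CPM, 28.6%, 25.6% and 22.8% fell and 25.5%, 23.8% and 22.7% rose at these times. Nothing is read from the counts at 72 h. The values at 48 h ran from -0.72 for HAUS6, a subunit of the augmin complex that branches spindle microtubules, to 0.21 for NCAPH2, a condensin subunit, which did not pass at that time. GTSE1, a microtubule-associated protein of mitosis, was at -0.30, -0.55 and 0.07, and KIFC1, a minus-end-directed spindle kinesin, at -0.07 and -0.29 at 24 and 48 h. Both are named because their patterns over these same groups were among the 3 closest to that of KIF20A, as given below. That they had, like KIF20A, their lowest value at 48 h and no call at 72 h follows from this choice and is no separate result.

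Of the 7 located replication genes, 5 fell at 24 h, 3 fell and 1 rose at 48 h, and 1 fell and 1 rose at 72 h. Among genes from 1 CPM, 28.6%, 25.6% and 22.8% fell and 25.5%, 23.8% and 22.7% rose at these times. Nothing is read from the counts at 72 h. TONSL, which acts in the repair of stalled forks, was at -0.63, -1.02 and -0.46 and was a DEG at 48 h. MCM9, a relative of MCM5 that is not part of the replicative ring, was at 0.15, 0.29 and 0.19, with a call at 48 h only (adjusted p = 0.0350). RPA3 was barely detected, with a mean of 0.147 CPM. It is counted among the 7 and the 26 genes although it is below the limit of 1 CPM that the shares beside them use. With AS alone 0 of the 26 genes fell and 1 rose at 24 h, 2 fell and none rose at 48 h, and 2 fell and 3 rose at 72 h, beside 2.52%, 3.66% and 13.2% of all genes tested that changed in either direction. With Ibr alone 2 fell and 1 rose at 24 h, 4 fell and 2 rose at 48 h, and 3 fell and 2 rose at 72 h, beside 9.13%, 10.6% and 17.6%. Of the genes from 1 CPM, AS changed 4.31%, 6.2% and 21.6% and Ibr 15.4%, 17.6% and 28.6%, so nothing is read from these counts about the lists.

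**Figure D4:**
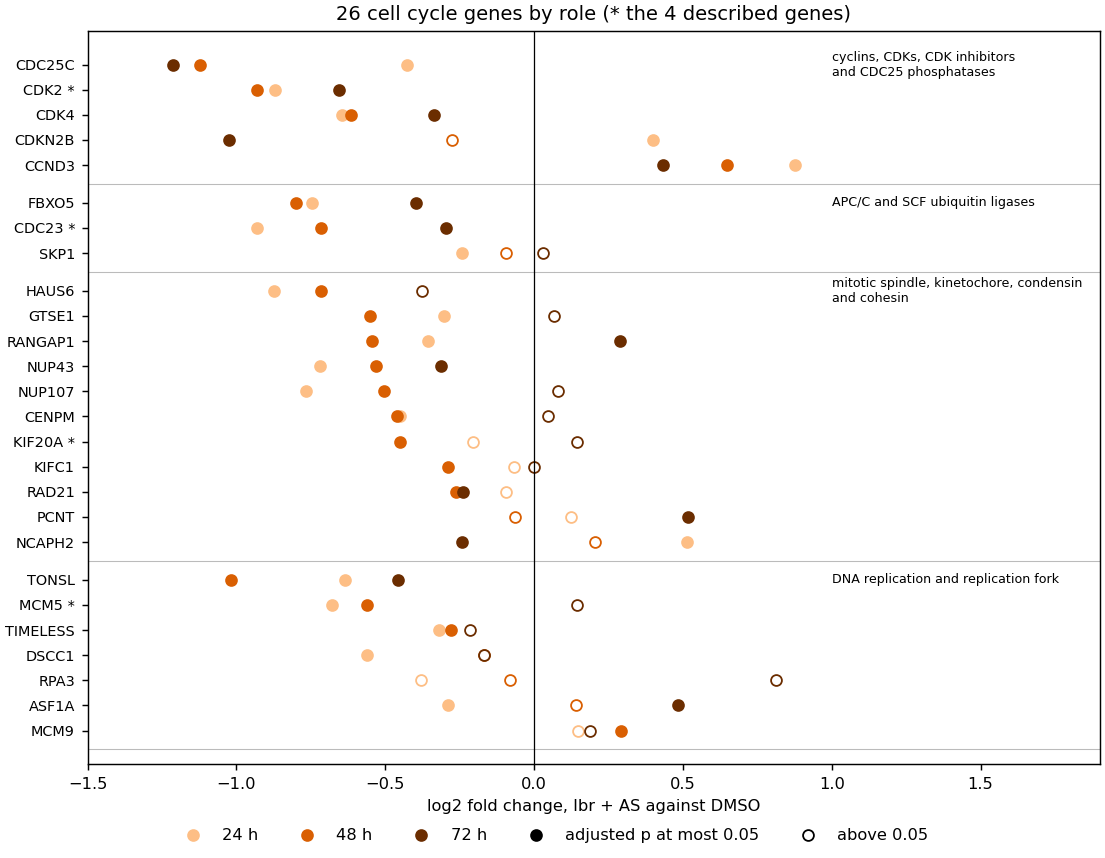
Log2 fold change of Ibr + AS against DMSO (horizontal axis) at 24, 48 and 72 h (colour) for the 26 located cell cycle genes (rows), in 4 lists by role and ordered within a list by the value at 48 h, with filled symbols where the adjusted p was at most 0.05. Most filled symbols at 24 and 48 h lie below 0, while CCND3 lies above 0 at every time and the symbols at 72 h lie on both sides.

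Genes next to the 4 were examined because reads in overlapping exons can be shared. In the RefSeq annotation of the dog assembly UU_Cfam_GSD_1.0, which is not the build of the counts and was used for gene order only, KIF20A and CDC23 are direct neighbours whose spans overlap, and the span of KIF20A also overlaps that of BRD8, a bromodomain protein. Which strand setting the counts used is not given in the sources used here, so reads in such overlaps could have been assigned or dropped in either gene and the values of KIF20A and CDC23 carry that uncertainty. BRD8 rose with Ibr + AS at 24 h (0.35 ± 0.09, adjusted p = 8.05e-04) and stood at 0.15 and -0.07 at 48 and 72 h. GFRA3, on the other side of CDC23, had 0 to 9 reads per library. CDK2 lies between PMEL and RAB5B without overlap. PMEL, a melanosome protein with 8 to 13 reads per library with DMSO and 11 to 28 with Ibr + AS at 24 h, rose at that time (0.93 ± 0.37, adjusted p = 0.0404) and stood at 0.53 and -0.18 at 48 and 72 h, where it did not pass. RAB5B, a GTPase of early endosomes, was at -0.10, -0.17 and -0.34 with Ibr + AS and passed at 72 h only (adjusted p = 0.0423). MCM5 lies beside HMOX1 without overlap. HMOX1, the heme oxygenase induced by oxidative stress, rose by 3.36, 3.71 and 3.72 on the log2 scale at 24, 48 and 72 h, and TOM1, the gene beyond it, by 0.70 and 0.34 at 24 and 48 h.

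The pattern of each gene over the 12 group means was compared with the 878 other paired genes with at least 1 CPM, by the root mean square difference of log2 levels after each gene's own mean was subtracted. The closest to CDK2 were TMEM33, ACO1 and NARS1 (0.088, 0.091 and 0.095, with a median of 0.348 over all genes). The closest to MCM5 were CANX, CAND1 and AKR1B1 (0.092, 0.100 and 0.101, median 0.269). The closest to CDC23 were SLC30A9, HAUS6 and NUP43 (0.077, 0.078 and 0.079, median 0.306). The closest to KIF20A were GTSE1, PPIL1 and KIFC1 (0.059, 0.062 and 0.064, median 0.207). Among the 4 genes themselves, CDK2 and CDC23 were nearest to each other (0.113) and CDK2 and KIF20A farthest apart (0.269). A gene that varies little is close to every other gene that varies little, and the levels of KIF20A varied by less than those of most candidates, with only 27% varying less, against 82.3% for CDK2, 74.5% for CDC23 and 67% for MCM5.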

How the data were processed

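The authors sequenced poly-A RNA (single-end) and deposited raw read counts per gene, which they made with STAR 2.7.5a against CanFam3.1 with the Ensembl annotation, pooling 4 lanes. These counts were used as deposited. A gene entered a fit when its reads there summed to 2 or more. After TMM scaling, the quasi-likelihood test of edgeR 4.0.16 (R 4.3.3) was fitted with passage and group as terms to 35 libraries, and separately to the 9 DMSO libraries. Adjusted p are Benjamini-Hochberg values over all genes tested, with a limit of 0.05. Standard errors of log2 fold changes were derived from the fold change and the F statistic of the fit. Their spread is therefore shared by all groups of that fit and moderated across genes, and is not that of the compared libraries alone. Treatments at a time share their DMSO libraries, so the contrasts are not independent. The script was tested on simulated data.

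The block follows the passage in the labels. Deviations from group means correlated with a median r of 0.115 within a passage and -0.042 between passages, over 8102 genes. The title of DMSO 24 h replicate 3 names p126 and its passage field p128, and p128 was used.

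No 2 libraries of the same group were identical, and replicate pairs differed by 1.87 to 26.9 times the sampling noise (chi-square per degree of freedom). Libraries of different groups were not compared in this way. The 4 genes, the role lists and the tests were chosen with earlier results of these data known. Genes named are the 4 genes, the located members of the lists by their counts with the lowest and highest of each list at 48 h, the neighbours, and the 3 most alike. Others named were chosen after their values were seen. Alternatives tried were DESeq2 1.42.0, RLE factors, the filterByExpr filter, all 36 libraries, no passage term, each replicate left out, only the groups of a comparison, the series of sample-sheet numbers as a term, and rlog for levels. Searches of promoter motifs were not made here.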

Additional observations from a re-analysis of the deposited data

Results flagged for a closer look

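The change with Ibr + AS against DMSO differed between 24 h and 72 h for 3 of the 4 genes, by a test of the difference itself within the edgeR fit (Benjamini-Hochberg adjustment). Such a difference was common, with 24.6% of all genes tested past the limit, and 11.6% with a higher effect at 72 h. Of genes from 1 CPM, 39.7% passed, and 19.7% had a higher effect at 72 h. The change at 72 h less that at 24 h was 0.82 for MCM5 (adjusted p = 1.60e-07), 0.64 for CDC23 (adjusted p = 7.68e-05) and 0.35 for KIF20A (adjusted p = 0.0364), on the log2 scale. For MCM5 and CDC23 the difference passed the limit in all 10 alternative fits, with 0.66 to 0.93 and 0.45 to 0.73. For KIF20A it passed in 4 of the 10, with 0.31 to 0.36. All 3 genes fell in DMSO alone over the same interval, by 0.25, 0.28 and 0.27. The difference is the change over that interval with Ibr + AS less that with DMSO. With Ibr + AS the changes were 0.59 for MCM5, 0.37 for CDC23 and 0.09 for KIF20A. The last did not pass (adjusted p = 0.702 by edgeR), so for KIF20A the DMSO values made up most of the difference.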

How the results depend on the processing

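All values are log2 differences. Of the 17 results past the limit among the contrasts with DMSO, the departures from additivity and the DMSO time course, 10 stayed past it in every alternative run: Ibr + AS against DMSO for CDK2 at 3 times, for CDC23 and MCM5 at 24 and 48 h and for KIF20A at 48 h, the departure of MCM5 at 24 h, and its fall in DMSO at 72 h. Of the 116 results with a test, 20 had the other sign in at least 1 alternative, in 46 values altogether, and none of those values was past the limit. For the calls that moved the cause was not tested. Each gene had at least 315 reads per library, and each group 3 tested libraries, or 2 for Ibr at 72 h.

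Without the passage term (no replicate block), the departure of CDK2 at 24 h was -0.46 and no longer passed, Ibr against DMSO for CDC23 at 24 h was -0.27 and passed (adjusted p = 0.0474), KIF20A with Ibr + AS against Ibr at 48 h was -0.25 and no longer passed (adjusted p = 0.0539), and the effect of Ibr on CDK2 at 72 h less 24 h was 0.013. With RLE factors the departure of CDK2 at 24 h was -0.44 (adjusted p = 0.0619). Its departure at 48 h passed with the filterByExpr filter (-0.39), with only the groups of the comparison (-0.36) and with the series of sample-sheet numbers as a term (-0.40). For CDC23 at 24 h, AS passed with DESeq2 (-0.26), the filter (-0.26) and only the groups (-0.27), Ibr with DESeq2 (-0.26), the filter (-0.26) and only the groups (-0.27), and the departure with DESeq2 (-0.39) and the filter (-0.40). With only the groups of the comparison, Ibr passed for CDK2 at 24 h (-0.26), KIF20A at 48 h (-0.21) and MCM5 at 72 h (0.28), as did, for MCM5, Ibr against AS at 24 h (-0.21) and the effect of Ibr at 72 h less 24 h (0.31). Lost there were Ibr + AS for CDC23 at 72 h (-0.30, adjusted p = 0.0679), Ibr + AS at 72 h against Ibr for CDK2 (-0.37) and against AS for CDC23 (-0.30), the rises with Ibr + AS of CDK2 (0.31) and CDC23 (0.37), and the effect difference of KIF20A (0.35). With all 36 libraries, Ibr passed for MCM5 at 72 h (0.26) and Ibr + AS against Ibr for CDC23 at 72 h (-0.27). KIF20A with Ibr + AS against Ibr at 48 h was lost with RLE factors (-0.23, adjusted p = 0.0655), all 36 libraries (-0.24, adjusted p = 0.0559) and the series as a term (-0.20, adjusted p = 0.156), and its effect difference with RLE factors (0.33) and all 36 libraries (0.32). With the series as a term, the fall of KIF20A in DMSO at 72 h was lost (-0.17).

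The sign changed for CDC23 with AS at 48 h with the series as a term (0.011), and at 72 h with DESeq2 (-0.0095), RLE factors (-0.010), all libraries (-0.0065) and only the groups (-0.0050). For MCM5 with AS at 48 h it changed with DESeq2 (-0.0021), RLE factors (-0.0021) and all libraries (-0.0062), and for the departure of KIF20A at 72 h with DESeq2 (0.019), RLE factors (0.019) and the filter (0.0083). For CDC23, Ibr against AS at 24 h, it changed with DESeq2 (0.0033), RLE factors (0.0033), the filter (0.0028), all libraries (0.00072) and only the groups (0.0037). For CDK2, the effect of AS at 72 h less 24 h changed sign with DESeq2 (-0.011), RLE factors (-0.011) and all libraries (-0.020), and that of Ibr with all libraries (0.057), only the groups (0.0079) and the series as a term (0.012).

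With each replicate left out in turn, the values that changed call or sign ranged as follows. Against DMSO, CDK2 with Ibr at 48 h ranged from -0.45 to -0.28, CDC23 from -0.093 to 0.0062 with AS at 48 h, from -0.078 to 0.055 with AS at 72 h and from -0.40 to -0.22 with Ibr + AS at 72 h, KIF20A from -0.048 to 0.032 and from -0.033 to 0.052 with AS at 24 and 48 h and from -0.017 to 0.087 with Ibr at 72 h, and MCM5 from -0.075 to 0.046 with AS at 48 h and from -0.022 to 0.28 with Ibr + AS at 72 h. The departure ranged for CDK2 from -0.49 to -0.34 at 24 h and from -0.49 to -0.17 at 48 h, for CDC23 from -0.58 to -0.46 at 48 h, for KIF20A from -0.45 to -0.099 at 48 h and from -0.10 to 0.10 at 72 h, and for MCM5 from -0.54 to -0.30 at 48 h and from -0.49 to -0.20 at 72 h. In DMSO, CDC23 ranged from -0.33 to -0.19 at 72 h, and KIF20A from -0.034 to 0.059 at 48 h and from -0.36 to -0.15 at 72 h. Ibr against AS ranged for CDK2 from -0.18 to 0.021 at 24 h and from -0.22 to 0.0043 at 48 h, for CDC23 from -0.012 to 0.022 at 24 h and for MCM5 from -0.024 to 0.17 at 72 h. At 72 h, Ibr + AS ranged against AS from -0.12 to 0.11 for KIF20A and from -0.27 to 0.063 for MCM5, and against Ibr from -0.24 to 0.016 for MCM5 and from -0.50 to -0.34 for CDK2. KIF20A against Ibr at 48 h ranged from -0.40 to -0.12, and CDC23 against AS at 72 h from -0.34 to -0.24. At 72 h against 24 h, CDK2 with Ibr ranged from -0.0048 to 0.20, CDC23 with AS from -0.057 to 0.063, CDK2 and CDC23 with Ibr + AS from 0.16 to 0.42 and from 0.28 to 0.41, the effects of AS and of Ibr on CDK2 from -0.041 to 0.067 and from -0.12 to 0.16, and that of Ibr + AS on KIF20A from 0.31 to 0.36.

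The filter raised the shares of genes lower with Ibr + AS to 27.9%, 25% and 24% at 24, 48 and 72 h, and the shares with a departure below the sum to 3.47%, 13.4% and 7.67%, since it tests fewer genes. On the rlog scale the 12 differences in mean level between Ibr + AS and DMSO kept their sign, and 9 were smaller by more than the spread between replicates. On the log2 CPM scale these 9 were 1.6 to 1.69 times as large, for example at 24 h -0.85 against -0.52 for CDK2, -0.91 against -0.56 for CDC23 and -0.66 against -0.41 for MCM5, and -0.46 against -0.27 for KIF20A at 48 h. All 12 groups kept their rank for CDK2, CDC23 and KIF20A, and 10 of 12 for MCM5.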
